A study of Sus scrofa with 21 samples.

Results

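The tubulin tyrosine ligase-like (TTLL) enzymes were followed in testis RNA of 21 boars. The family was chosen by symbol, as glutamylases and glycylases that act on axonemal tubulin. It held 10 genes: TTLL1, TTLL2, TTLL3, TTLL4, TTLL5, TTLL6, TTLL7, TTLL9, TTLL10 and TTLL13. Of these, 9 were matched to one of the 25880 counted pig genes. TTLL2 had no Ensembl identifier in the name table used here and has no value below.

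TTLL enzymes add amino acids to the carboxy-terminal tails of tubulin, which project from the surface of the microtubule. Glutamylases start or lengthen side chains of glutamate, and glycylases do the same with glycine. Both kinds of chain are dense on the axoneme, the microtubule core of cilia and of the sperm flagellum, where they affect the dynein motors that bend it. The enzymes are used in the testis while spermatids build their flagella, and mice that lack TTLL1, TTLL5 or TTLL9 have defective sperm tails.

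The study asked which testis transcripts differ between boars whose sperm are more or less hyperactive, hyperactivity being the vigorous, asymmetric beating that sperm need near the egg. Testis tissue was taken at slaughter from adult boars used for artificial insemination, and messenger RNA was sequenced with 1 library per boar. Contrast (i) compared 4 Landrace boars with low hyperactivity on day 0, the day of ejaculation (L1, L2, L3 and L4), with 4 Landrace boars with high hyperactivity (L5, L6, L7 and L8). Contrast (iii) compared Landrace boars whose hyperactivity changed little over 96 h of semen storage at 18 °C (L2, L9, L10 and L12) with boars in which it changed much (L7, L13 and L15). Contrast (ii) compared 5 Duroc boars labelled high on day 0 (D1 to D5) with 3 labelled low (D6, D7 and D9). The boars carried no treatment or engineered allele, and L2 and L7 are in both Landrace contrasts, so the 2 are not independent. Matched by name, the group of 7 of the 8 Duroc boars differs between the labels and the study's own list. The deepest Duroc libraries, D3 and D2 with 125576407 and 84446404 counts on genes, are labelled high. The most deeply sequenced Duroc boars of the study's list are also in its high group, under other names. The boars were not all matched by depth, so every Duroc direction is given only as labelled. The Landrace groups are the same in the labels and the list. The study's text and its table of counts give opposite signs to the Landrace contrasts. Here the signs follow the labels, as the level in the high boars minus that in the low boars.

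The libraries held 41358671 to 125576407 counts on genes. The least counted value of any member was 703 reads, for TTLL10 in L13. Levels are in CPM, the reads of a gene scaled to a common library size, with trimmed mean of M-values (TMM) factors from all 21 libraries. They are not divided by transcript length, so levels of different genes are not compared. Differences are log2 fold changes with their standard error (SE), tested with edgeR's quasi-likelihood test. A gene was called when its p, adjusted by the Benjamini-Hochberg method over all genes tested in that comparison, was under 0.05. All 9 members passed the filter on low counts in every comparison.

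RNA of the germ cells that form flagella was counted in all 21 libraries. TNP1, a protein that replaces histones in elongating spermatids, was at 3306 to 7904 CPM, and the flagellar protein AKAP4 at 1337 to 3292 CPM. Of the other markers of elongating spermatids, PRM2 was at 10.8 to 45.2 CPM and TNP2 at 52.6 to 292 CPM. Of the 8 Sertoli cell markers, AMH had no reads in any library, and of the 7 counted spermatogonial markers, NANOS2 had none. L13, a boar of the high group of contrast (iii), stood apart: its 7 counted markers of elongating spermatids summed to 7068 CPM, the lowest of the 21 libraries, and its Sertoli markers to 515 CPM, the highest. Differences of contrast (iii) are therefore given with and without L13.

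By RefSeq gene models of the Sscrofa11.1 assembly, the members with coordinates lie on 8 chromosomes. TTLL1 is at chr5:5793760-5827622, TTLL3 at chr13:66094069-66123984 and TTLL4 at chr15:120748537-120791825. TTLL5 spans chr7:98822338-99090076, TTLL6 chr12:24980421-25033509 and TTLL9 chr17:35558373-35612761. TTLL7 at chr6:129708353-129868498 and TTLL10 at chr6:63494759-63513884 share a chromosome. TTLL2 is at chr1:1974295-1977836, and TTLL13 had no entry in the table used here. Gene models of TTLL4, TTLL5 and TTLL9 overlap other genes: a long non-coding RNA (LOC106506368) in TTLL4, C7H14orf1 and a pseudogene (LOC110261634) in TTLL5, and PDRG1 in TTLL9. Reads where models overlap on 1 strand could not be assigned to either gene, and the counts of these 3 members are less certain for it.

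The initiating glutamylases attach the branching glutamate from which a side chain grows. TTLL5 ran from 395 CPM in L13 to 755 CPM in D6, with a median of 585. TTLL4 ran from 120.25 CPM in L13 to 245 CPM in L3, with a median of 205. TTLL7, which prefers beta-tubulin, had the wider range, from 74.4 CPM in D1 to 229 CPM in L8, with a median of 142. The coefficient of variation (CV, the SD as a percentage of the mean) over the 21 boars was 14.1% for TTLL5, 17.6% for TTLL4 and 22.1% for TTLL7.

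Among the enzymes that act on longer glutamate chains, TTLL1, the catalytic subunit of a polyglutamylase complex, ran from 30.6 CPM in L13 to 63.1 CPM in D6, with a median of 49.2. The chain-elongating enzymes TTLL6, TTLL9 and TTLL13 differed in how evenly they were expressed. TTLL13 stayed between 59.3 CPM (D3) and 101 CPM (D6), a CV of 14.5%. TTLL6 ran from 12.6 CPM (L13) to 28.9 CPM (L4), a CV of 23.8%. TTLL9 ran from 39.4 CPM (L13) to 132 CPM (L5), a CV of 32.2%.

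The glycylases lay at the ends of the family's range of variation. TTLL3, which attaches the initial glycine, was the most even member, from 17.0 CPM in D6 to 25.9 CPM in D7, with a median of 19.6 and a CV of 12.6%. TTLL10, which lengthens glycine chains, was the most variable, from 8.30 CPM in L13 to 35.9 CPM in L3, with a median of 23.6 and a CV of 33.4%. Its highest boar exceeded its lowest 4.33-fold, against 1.52-fold for TTLL3. The median CV of the 9 members was 17.6%, and that of the 13126 genes that passed the filter over all libraries was 24.4%.

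L13 had the lowest level of 6 of the 9 members, TTLL1, TTLL4, TTLL5, TTLL6, TTLL9 and TTLL10. Its TTLL3, at 24.3 CPM, was instead above the median of 19.6. D6 had the highest level of 3 members, TTLL1, TTLL5 and TTLL13, and also the lowest level of TTLL3. In the heat map of levels, L13 is therefore low in nearly the whole family, with TTLL3 as the exception.

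**Figure D1:**
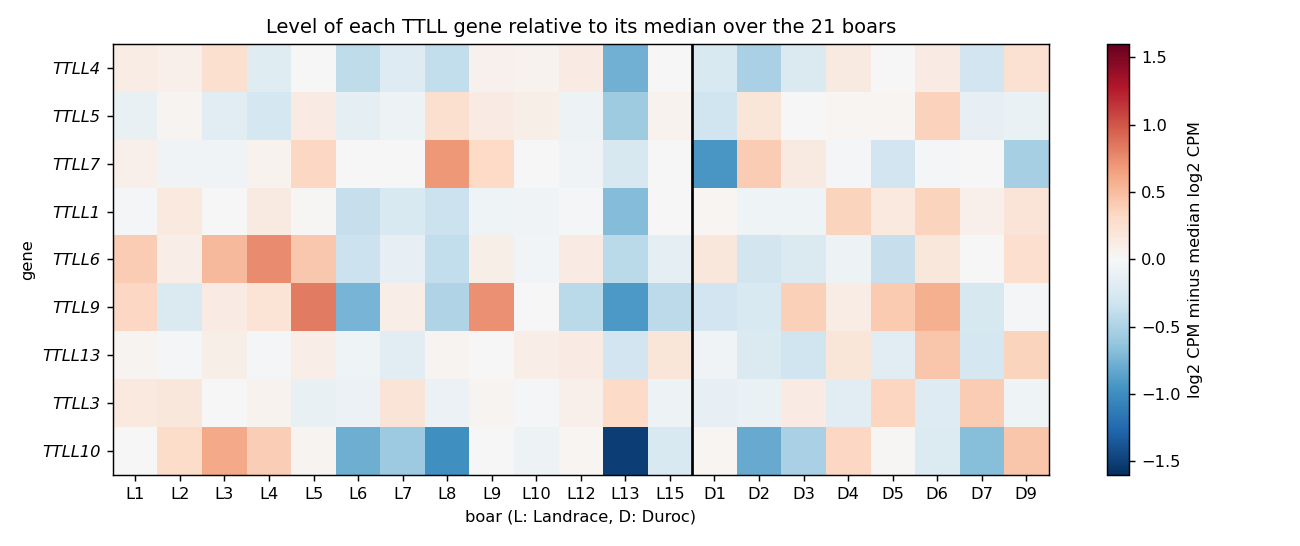
Heat map of the 9 TTLL genes (rows) in the 21 boars (columns, Landrace left of the line and Duroc right of it), coloured by log2 CPM minus the gene's median log2 CPM over the 21 boars. L13 has the lowest level in 6 rows, with TTLL10 at 8.30 CPM against a median of 23.6, while its TTLL3 is above the median.

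In contrast (i), TTLL10 was the only member called, and it was lower in boars with high hyperactivity on day 0. In the 4 low boars it was at 23.6 CPM (L1), 29.0 (L2), 35.9 (L3) and 30.9 (L4). In the 4 high boars it was at 24.3 CPM (L5), 13.7 (L6), 15.8 (L7) and 11.95 (L8). L6, L7 and L8 lay below every low boar, but L5 lay just above L1, so the groups overlapped. The group means were 29.9 ± 5.10 CPM (SD, n = 4) and 16.4 ± 5.48 CPM (SD, n = 4). TTLL10 fell by 0.84 on the log2 scale (SE 0.23, 95% interval -1.35 to -0.33, edgeR adjusted p = 0.0322), to 0.558 times its level in the low boars. Of all 12979 genes tested, 20.7% were called in this contrast and 15.8% were called lower in the high group, so 1 of 9 members is not above the background. The two-sided exact permutation test on log2 CPM gave p = 0.0571 for TTLL10, where 4 boars against 4 allow 0.0286 at the smallest. In whole tissue, fewer cells of a type and less RNA per cell cannot be told apart.

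The call of TTLL10 rested on several boars. It was lost when L3, L4, L6 or L8 was left out, with adjusted p up to 0.0760, and also in a fit of all 13 Landrace boars (adjusted p = 0.0582). Without L5 its difference was -1.09 (adjusted p = 0.0109). Across all genes the number called was as unsteady: 1 without L3, 1 without L6, and 966, 1481 and 1228 without L1, L4 and L8, against 2682 with all boars. Those 2682 were 626 genes with a positive and 2056 with a negative difference. DESeq2 called 1458 and 2464, and the likelihood ratio test 994 and 2433. The quasi-likelihood test with relative log expression (RLE) factors called 838 and 2028. The study's text reports the opposite balance, with most of its called genes up-regulated in the high group.

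Some marker genes were called in the same contrast, in which 15.8% of all genes were called lower and 4.82% higher. The marker calls were not tested against this background. Of the 7 counted markers of elongating spermatids, 3 were called lower in the high boars, although their sums overlapped, at 12020 to 16312 CPM in the low boars and 12473 to 16515 CPM in the high boars. Of 6 round spermatid markers 2 were called lower, but the median log2 fold change of the 6 was 0.12. Their sums were 1426 to 1536 CPM in the low boars and 1315 to 1906 CPM in the high boars. Of 7 spermatocyte markers 1 was called higher, with sums of 1116 to 1396 CPM in the low boars and 1404 to 2171 CPM in the high boars. Of 4 tested markers of peritubular and vascular muscle, 2 were called lower, with sums of 49.1 to 110 CPM in the low boars and 17.2 to 61.3 CPM in the high boars. Markers of spermatogonia, Sertoli cells, Leydig cells, endothelium and macrophages held no call. The part of these marker differences in the TTLL10 difference was not tested.

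TTLL6 had the next largest difference and was not called. It was at 22.6 CPM (L1), 18.3 (L2), 24.5 (L3) and 28.9 (L4) in the low boars. The high boars had 22.9 CPM (L5), 13.5 (L6), 15.5 (L7) and 12.96 (L8). As for TTLL10, only L5 among the high boars reached the low boars. The log2 fold change was -0.52 (SE 0.22, adjusted p = 0.100). Without L5 it was -0.73 (adjusted p = 0.0217), which made TTLL6 a call of that fit beside TTLL10.

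For TTLL1 the low boars had 48.4 (L1), 54.9 (L2), 49.4 (L3) and 54.4 CPM (L4), and the high boars 49.7 (L5), 38.2 (L6), 41.4 (L7) and 38.8 CPM (L8). For TTLL4 the values were 222, 217, 245 and 179 CPM in L1 to L4 and 207, 155, 178 and 157 CPM in L5 to L8. L5 lay above L1 and L3 for TTLL1 and above L4 for TTLL4, and the other 3 high boars lay below every low boar for both genes. The log2 fold changes were -0.29 for both (SE 0.14 and 0.15), with adjusted p of 0.141 and 0.145.

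The other 2 initiating glutamylases had positive differences that did not pass the test. TTLL7 was at 136 to 150 CPM in the low boars and 142 to 229 CPM in the high boars, a log2 fold change of 0.29 (SE 0.16, adjusted p = 0.174) that was 0.14 without L8. TTLL5 was at 482 to 601 CPM in the low boars and 527 to 698 CPM in the high boars, a log2 fold change of 0.19 (SE 0.13, adjusted p = 0.297) that was 0.099 without L4. Both genes overlapped between the groups, and L8 had the highest value of each.

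TTLL3, TTLL9 and TTLL13 had the smallest differences. Their log2 fold changes were -0.10 (95% interval -0.44 to 0.23), -0.05 (-0.69 to 0.60) and -0.02 (-0.28 to 0.23). The high boars were spread widely in TTLL9, from 44.5 CPM (L6) to 132 CPM (L5), on both sides of the low boars at 63.4 to 94.1 CPM. Over the family, 2 of 9 members had an unadjusted p under 0.05, against 41.7% of all genes. None of the 9 had groups that did not overlap, against 28.3% of all genes. The median log2 fold change was -0.10 for the members and 0.03 for all genes tested.

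**Figure D2:**
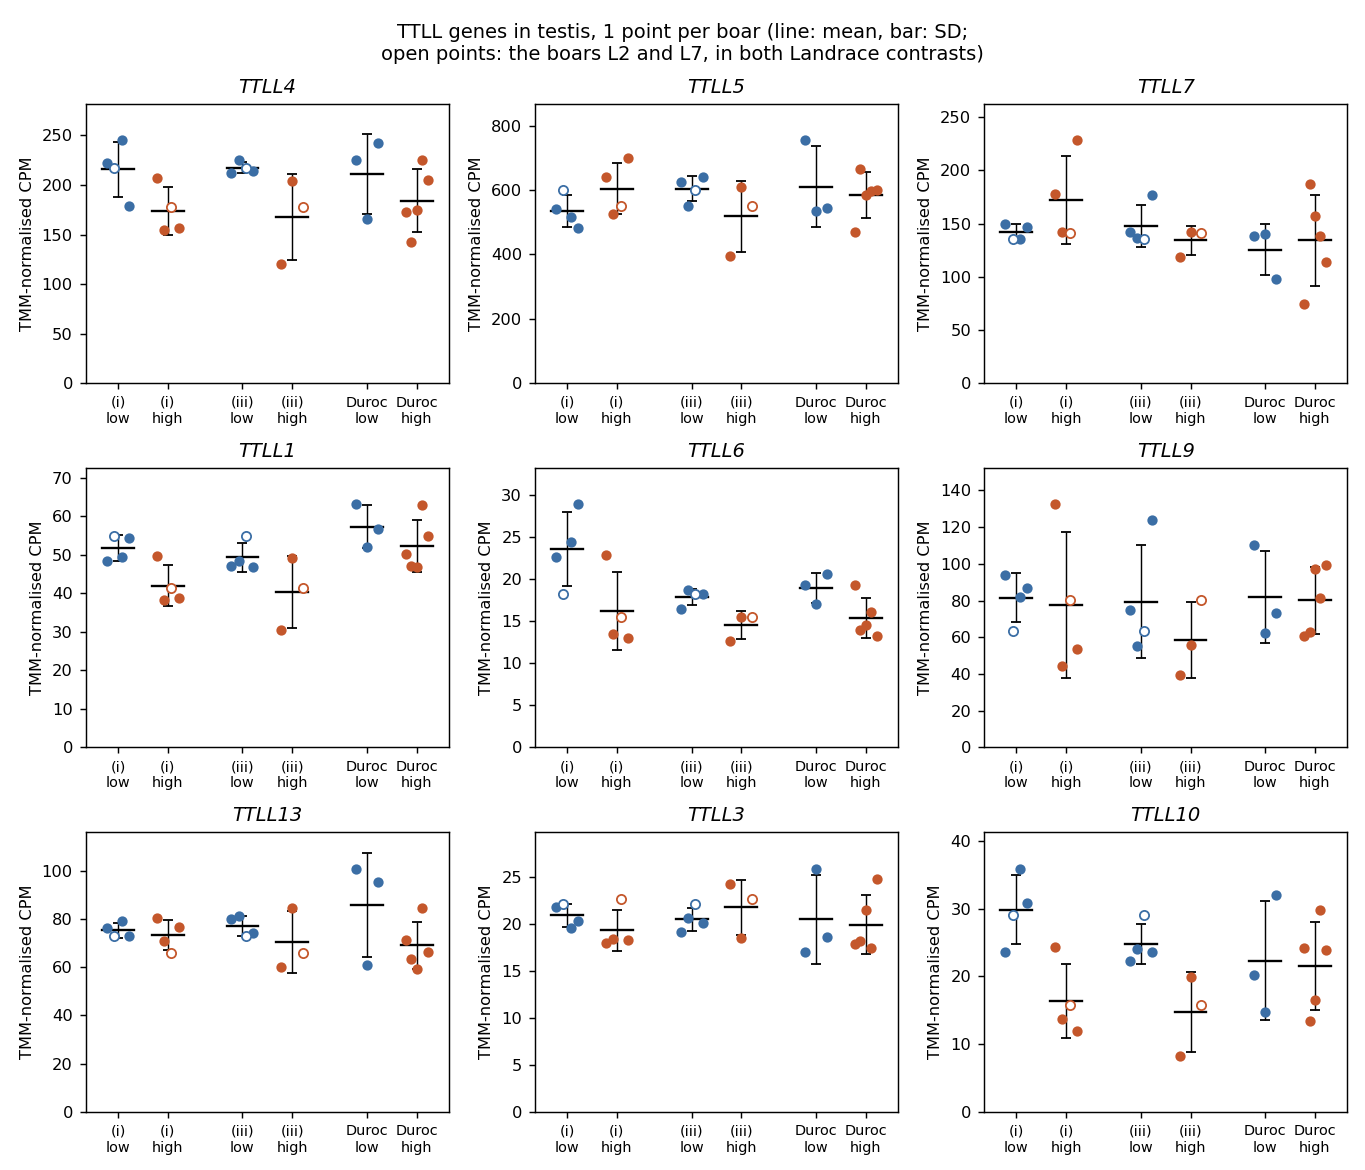
TMM-normalised CPM of each TTLL gene (1 panel a gene, axis from 0) in the low (blue) and high (orange) boars of contrasts (i) and (iii) and in the Duroc boars as labelled, with 1 point per boar, the mean as a line and the SD as a bar. Open points are L2 and L7, which both Landrace contrasts hold, and in the TTLL10 panel 3 of the 4 high boars of contrast (i), at 11.95 to 15.8 CPM, sit below all 4 low boars.

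The members were set beside 51 other genes of the tubulin code, of which 35 had a row and 31 were tested. In contrast (i), 11 of the 31 were called, 9 lower and 2 higher in the high boars, against 15.8% of all genes called lower and 4.82% called higher. Of the 31 log2 fold changes, 16 were negative and 15 positive, and their median was -0.38, with the next higher value at 0.00079. This list was written with earlier results of these data known and is no independent evidence of a direction. Without L3 or without L6 no gene of the list was called, and without L8 7 were.

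Among the tubulins, the substrates of the TTLL enzymes, 4 of 6 were called lower, against 15.8% of all genes. TUBB4B, a beta-tubulin of axonemes, was at 41.0 to 50.4 CPM in the low boars and 8.23 to 24.1 CPM in the high boars (log2 fold change -1.56, SE 0.31, adjusted p = 0.0208). TUBB3 was at 2.86 to 5.40 CPM against 0.429 to 1.80 CPM (-1.85, SE 0.42, adjusted p = 0.0210), and TUBB4A at 3.19 to 4.87 CPM against 0.894 to 1.91 CPM (-1.29, SE 0.30, adjusted p = 0.0214). The groups of these 3 genes did not overlap, which held for 12 of the 31 genes of the list and 28.3% of all genes. In the high boars TUBB3 and TUBB4A were near the 1 CPM of the filter. TUBA4A was called too (-0.68, adjusted p = 0.0472), whereas TUBA1B, at 0.02, and TUBB, at -0.38, were not. Beta-tubulin genes resemble each other in sequence, so their counts are less certain where reads fit more than 1 copy.

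The other ligases of the family had negative differences as well. TTLL8, which like TTLL3 attaches the initial glycine, was the lowest of the 3 tested: 1.76 (L1), 1.97 (L2), 4.34 (L3) and 3.24 CPM (L4) in the low boars and 1.28 (L5), 0.926 (L6), 1.44 (L7) and 0.808 CPM (L8) in the high boars. Every high boar lay below every low boar, and TTLL8 fell by 1.32 on the log2 scale (SE 0.35, adjusted p = 0.0288). Of the glycylases, TTLL8 and TTLL10 were thus called lower and TTLL3, at -0.10, was not called. The elongating glutamylase TTLL11, at -0.81 (adjusted p = 0.0548), and TTLL12, at -0.79 (adjusted p = 0.0767), did not pass.

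Enzymes that act on the modified microtubules had calls in both directions. AGBL5, which removes the branching glutamate that TTLL4, TTLL5 and TTLL7 attach, was at 299 to 414 CPM in the low boars and 152 to 263 CPM in the high boars (log2 fold change -0.76, SE 0.19, adjusted p = 0.0239). The deglutamylases AGTPBP1 and AGBL2, at 0.47 and 0.32, did not pass. SPAST and KATNAL1, of the severing enzymes that cut microtubules, were called higher, at 0.55 (SE 0.15, adjusted p = 0.0327) and 0.39 (SE 0.13, adjusted p = 0.0460). Of the tubulin deacetylases, HDAC6 was at -1.08 (SE 0.22, adjusted p = 0.0208) and SIRT2 at -1.13 (SE 0.27, adjusted p = 0.0224). Of the 4 tested partners of TTLL1 in its complex, TPGS2, LRRC49, NICN1 and CSTPP1, none was called.

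**Figure D3:**
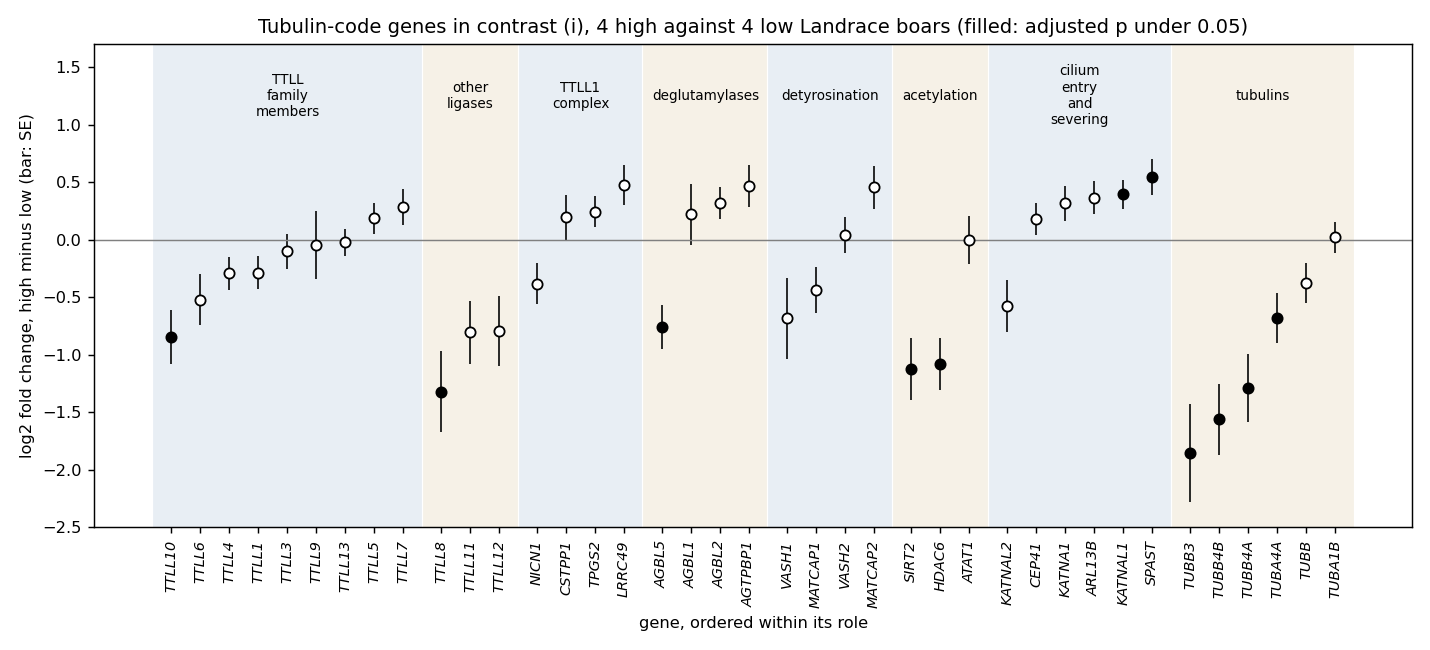
Log2 fold change, high minus low, with its SE (vertical axis) of the 9 TTLL genes and 30 of the other tubulin-code genes tested in contrast (i), ordered within their roles, with filled points for an adjusted p under 0.05. TTLL10 is the 1 filled point among the members, at -0.84, while 4 of 6 tubulins are filled and as low as -1.85.

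In contrast (iii) no member was called, and neither was any of the 12824 genes tested (0% background). The smallest adjusted p of a member was that of TTLL10. Its low boars were at 29.0 (L2), 23.6 (L9), 22.2 (L10) and 24.1 CPM (L12), and its high boars at 15.8 (L7), 8.30 (L13) and 19.97 CPM (L15). All 3 high boars lay below all 4 low boars. The log2 fold change was -0.75 (SE 0.27, unadjusted p = 0.0207, adjusted p = 0.240). Without L13 it was -0.45 (adjusted p = 0.604), and without L2 and L7, the boars shared with contrast (i), it was -0.72 (adjusted p = 0.347).

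TTLL4 and TTLL6 also had groups that did not overlap. TTLL4 was at 217 (L2), 214 (L9), 212 (L10) and 225 CPM (L12) in the low boars and 178 (L7), 120.25 (L13) and 204 CPM (L15) in the high boars. TTLL6 was at 18.3 (L2), 18.2 (L9), 16.5 (L10) and 18.7 CPM (L12) in the low boars and 15.5 (L7), 12.6 (L13) and 15.5 CPM (L15) in the high boars. Their low boars lay close together, and L13 was the lowest boar of both genes. The log2 fold changes were -0.37 (SE 0.17, adjusted p = 0.261) and -0.30 (SE 0.17, adjusted p = 0.319), and without L13 they were -0.16 and -0.19.

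These 3 of 9 members compare with 16.2% of all genes whose groups did not overlap. For each of the 3 the two-sided exact permutation test gave p = 0.0286, the smallest that 3 boars against 4 allow. That p restates that their groups did not overlap and is no further evidence. The same test gave the other 6 members p of 0.114 to 0.514. Without L13 the groups of 3 of 9 members did not overlap, against 18.6% of all genes. By an unadjusted p under 0.05, 1 of 9 members passed against 19.8% of all genes, and 1 of 9 against 8.04% without L13. The likelihood ratio test and DESeq2, which called 64 and 116 of all genes here, called no member either. The remaining members had log2 fold changes from -0.44 (TTLL9, SE 0.31) through -0.29 (TTLL1), -0.22 (TTLL5), -0.14 (TTLL7) and -0.13 (TTLL13) to 0.09 (TTLL3). Without L13 the same 6 were at -0.20 (TTLL9), -0.10 (TTLL1), -0.039 (TTLL5), -0.038 (TTLL7), -0.014 (TTLL13) and 0.028 (TTLL3), all nearer to 0. TTLL9 also depended on other boars, at -0.14 without L9 and -0.75 without L7. TTLL3 was the only member with a positive difference, at 19.2 to 22.1 CPM in the low boars and 18.6 (L15), 22.7 (L7) and 24.3 CPM (L13) in the high boars. The median was -0.29 for the members and 0.00345 for all genes, and without L13 it was -0.10 and 0.0070. Elongating spermatid markers summed to 13239 to 16268 CPM in the low boars and 7068 to 13504 CPM in the high boars, and Sertoli markers to 213 to 243 CPM and 211 to 515 CPM, with no marker called. Their part in these differences was not tested.

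Of the 31 other tubulin-code genes, 7 had an unadjusted p under 0.05 in contrast (iii), against 19.8% of all genes, and none was called. The 5 with the smallest p were SIRT2 (log2 fold change -0.83, SE 0.26), HDAC6 (-0.61, SE 0.19), KATNAL2 (-0.49, SE 0.17), TUBB4B (-1.10, SE 0.39) and TUBA4A (-0.67, SE 0.25), each with an adjusted p of 0.240. SIRT2 was at 21.2 to 34.6 CPM in the low boars and 9.90 to 18.7 CPM in the high boars. The groups of TUBB4B overlapped, at 21.4 to 67.3 CPM against 11.4 to 24.1 CPM. Without L13, 5 of the 31 (16.1%) had an unadjusted p under 0.05, against 8.04% of all genes. The named genes then had log2 fold changes of -0.59 (SIRT2), -0.51 (HDAC6), -0.49 (KATNAL2), -0.85 (TUBB4B) and -0.41 (TUBA4A).

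In contrast (ii), between the Duroc boars labelled high and low, no member was called. TTLL13 had the smallest p of the family. It was at 71.3 (D1), 63.3 (D2), 59.3 (D3), 84.6 (D4) and 66.3 CPM (D5) in the boars labelled high and at 101 (D6), 61.1 (D7) and 95.5 CPM (D9) in those labelled low. D7 lay among the boars labelled high, so the groups overlapped. The log2 fold change was -0.31 (SE 0.19, 95% interval -0.73 to 0.11, unadjusted p = 0.130), and it ran from -0.51 without D7 to -0.18 without D6.

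TTLL6 was at 19.3 (D1), 13.95 (D2), 14.6 (D3), 16.1 (D4) and 13.2 CPM (D5) in the boars labelled high and at 19.4 (D6), 17.0 (D7) and 20.6 CPM (D9) in those labelled low. D1 was the only boar labelled high that reached the range of the others. The log2 fold change was -0.30 (SE 0.19, unadjusted p = 0.136).

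TTLL10 was spread widely within both Duroc groups, at 24.1 (D1), 13.5 (D2), 16.5 (D3), 29.8 (D4) and 23.9 CPM (D5) against 20.3 (D6), 14.8 (D7) and 32.02 CPM (D9). The groups covered nearly the same range. Its log2 fold change was -0.05 (SE 0.30), with a 95% interval of -0.71 to 0.61. The other 6 members lay between -0.20 (TTLL4) and 0.10 (TTLL7). No gene of the 13043 was called by edgeR or DESeq2 (0%), 0 of 9 members had an unadjusted p under 0.05 against 1.21% of all genes, and 0 of 9 had groups apart against 1.38%. The smallest exact p that 5 boars against 3 allow is 0.0179.

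The other tubulin-code genes gave no call in the Duroc boars either, and none of the 31 had an unadjusted p under 0.05. The smallest p was that of the tubulin acetyltransferase ATAT1 (log2 fold change -0.38, SE 0.21), followed by AGBL1 (0.53, SE 0.33), SPAST (-0.30, SE 0.23), VASH1 (0.45, SE 0.47) and AGBL2 (-0.17, SE 0.19).

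Whether the labelled difference on day 0 differed between the breeds was tested with an interaction term over the 8 Landrace boars of contrast (i) and the 8 Duroc boars. No member was called, and none of 12920 genes was (0%). For TTLL10 the Duroc difference exceeded the Landrace difference by 0.77 on the log2 scale (SE 0.41, unadjusted p = 0.0773, adjusted p = 0.340). The other members ranged from -0.32 (TTLL13) to 0.19 (TTLL6), and 0 of 9 had an unadjusted p under 0.05, against 15.1% of all genes. These values, their signs and their order hold only for the Duroc groups as labelled, and the term was not fitted with those groups turned.

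Between the breeds, 13 Landrace against 8 Duroc boars, no member was called by edgeR or DESeq2, while edgeR called 2.88% of 13126 genes. TTLL1 came nearest. Its lowest, median and highest level was 30.6, 48.4 and 54.9 CPM in Landrace and 46.9, 53.4 and 63.1 CPM in Duroc. The Duroc boars D4, D6 and D9 lay above every Landrace boar, and the rest overlapped. The means were 46.0 ± 6.90 CPM (SD, n = 13) and 54.2 ± 6.40 CPM (SD, n = 8). The log2 fold change, Duroc minus Landrace, was 0.24 (SE 0.10, 95% interval 0.03 to 0.44, adjusted p = 0.278), and the two-sided exact permutation test gave an unadjusted p = 0.0160. Without L13 it was 0.19 (adjusted p = 0.492).

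By an unadjusted p under 0.05, 1 of 9 members passed between the breeds, against 12.3% of all genes, and none had breeds apart, against 0.297%. TTLL7 had the lowest value, -0.21 (SE 0.14, 95% interval -0.49 to 0.07), with 119 to 229 CPM in Landrace and 74.4 to 188 CPM in Duroc. TTLL6 followed at -0.14 (SE 0.15). TTLL3, TTLL4, TTLL10 and TTLL13 were each within 0.01 of 0, with 95% intervals no wider than -0.45 to 0.46, that of TTLL10. Of the cell type markers, 1 of 5 spermatogonial markers was called lower and 1 of 7 Sertoli markers higher in Duroc. Among the other tubulin-code genes 2 of 31 had an unadjusted p under 0.05, VASH1 (0.65, SE 0.26, adjusted p = 0.240) and TPGS2, a partner of TTLL1 (-0.18, SE 0.08, adjusted p = 0.358), and none was called. VASH2 (-0.17), SIRT2 (-0.48) and MATCAP2 (0.25) came next.

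**Figure D4:**
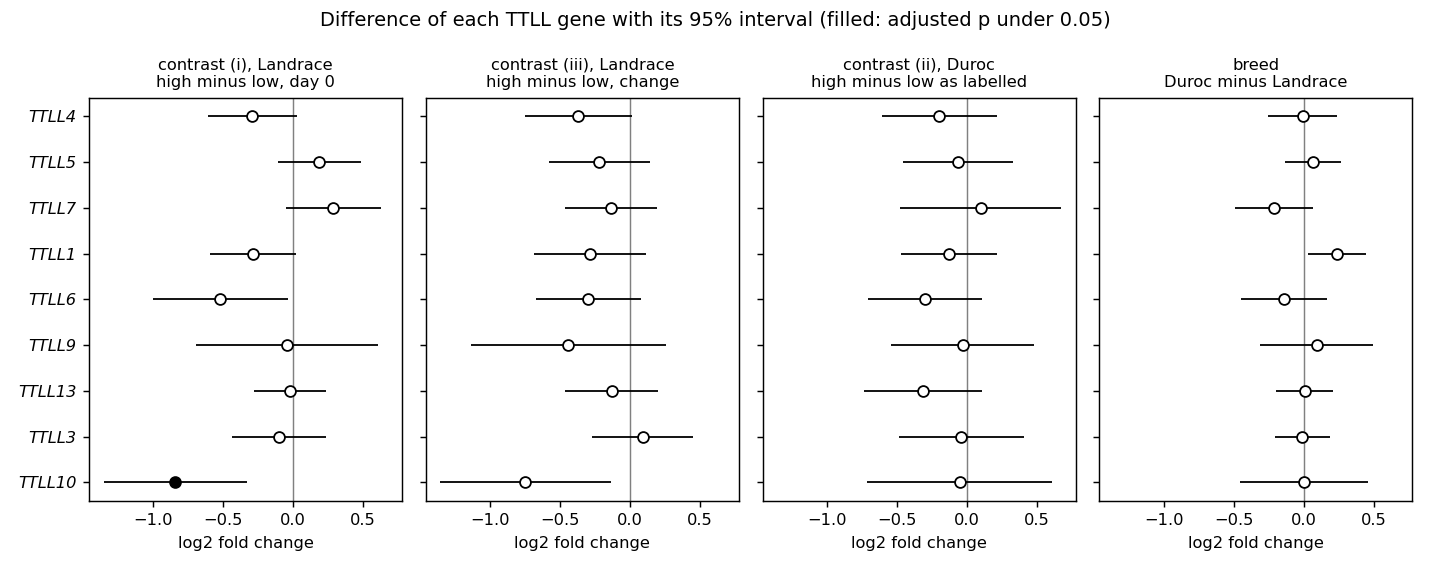
Log2 fold change (horizontal axis) of each TTLL gene with its 95% interval in the 4 comparisons, filled where the adjusted p was under 0.05. TTLL10 in contrast (i), at -0.84, is the 1 filled point, its interval in contrast (iii) is also below 0 without a call, and TTLL1 is the member whose interval lies above 0 between the breeds.

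The profiles of the members over the 21 libraries were compared with those of 11045 genes that have a symbol, as the mean absolute difference of standardised log2 CPM, in SD units. The median gene lay 1.09 to 1.14 SD from a member. TTLL10 had the closest neighbours of the family, CIMIP4 at 0.157 SD and FAM78A at 0.187 SD. The genes nearest to TTLL4 were GGA2 (0.271) and CUX1 (0.273), and those nearest to TTLL5 were NBR1 (0.246) and CDC25A (0.291). For TTLL1 they were OSBPL10 (0.286) and ACSBG2 (0.349), for TTLL7 ANKAR (0.301) and SHCBP1 (0.318), and for TTLL6 CHDH (0.361) and LEP (0.387). TTLL13 was nearest to WDFY3 (0.348) and DESI1 (0.396), TTLL9 to CSNK2B (0.431) and AVIL (0.477), and TTLL3 to SPI1 (0.524) and TMED9 (0.536).

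Within the family, TTLL4 and TTLL10 had the most alike profiles, 0.350 SD apart. TTLL10 was also the nearest member to TTLL1 (0.516) and to TTLL6 (0.529). TTLL5 and TTLL7 were nearest to each other, 0.730 SD apart. The profile of TTLL3 was the least like the rest, with TTLL9 as its nearest member at 1.08 SD, about as far as the median gene. These distances are a description over libraries that share breeds, groups and the low levels of L13.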

How the data were processed

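The authors trimmed single reads of stranded libraries with Trimmomatic 0.36, aligned them to Sscrofa11.1 with STAR and counted them per Ensembl gene with HTSeq. The deposited values are raw read counts of 25880 genes, 1 file per boar, and 5 summary lines were left out. Of all alignments, 21.5% to 30.2% fell on no gene and 5.83% to 8.28% were not unique. No 2 libraries of the same group were duplicates. Pairs across groups, which take in every pair with L2 or L7, were not part of this check.

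Each comparison was fitted on its own boars with the quasi-likelihood test of edgeR 4.0.16 after TMM normalisation, under R 4.3.3, and DESeq2 1.42.0 was an alternative. Genes needed at least 1 CPM in at least 4 libraries, or 8 between the breeds. Exact permutation tests used log2(CPM + 0.01). Other alternatives were a likelihood ratio test, RLE factors, no filter, a 3 CPM filter, other sets of boars and leaving out each boar. The code was tested on simulated data. Identifiers were paired with symbols for 14857 genes. No sequences or transcript lengths were used here.

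Groups came from the labels. The members and lists were chosen with earlier results of these data known. Named genes were all members, the 5 other tubulin-code genes of smallest p in each comparison and the 2 nearest profiles per member. A gene that this rule names is not reported here. In contrast (i) the other called genes of that list, the ligases, the deglutamylases AGTPBP1 and AGBL2, the TTLL1 partners, TUBA1B and TUBB were named after their values were seen.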

Additional observations from a re-analysis of the deposited data

Results flagged for a closer look

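In 45 groups of members and boars, the highest or lowest boar was compared with the rest of its group by Dixon's ratio. Chance marks about 1 in 20 such groups, or 2.25 of them, and 2 were marked. TTLL3 in the high group of contrast (i) was at 22.7 CPM in L7, against 18.0 to 18.4 CPM in L5, L6 and L8. TTLL7 in the low group of contrast (iii) was at 177 CPM in L9, against 136 to 142 CPM in L2, L10 and L12. Neither gene was called in these contrasts.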

How the results depend on the processing

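TTLL10 in contrast (i) was called under the likelihood ratio test, DESeq2, RLE factors, no filter and the 3 CPM filter, and its adjusted p ran from 0.0056 to 0.0760 over all alternatives, single boars left out included. In 1 fit of all 13 Landrace boars, 0 members were called. Leaving out single boars, 0 to 2 members were called in contrast (i), 0 to 12 other tubulin-code genes and 1 to 3764 of all genes. For all genes, contrast (iii) had 64 calls with the likelihood ratio test, 116 with DESeq2, 1 without a filter and 0 to 1 without single boars (1 without L7 or L10). Contrast (ii) had 0 to 2 without single boars (2 without D9), and the breeds had 204 calls when only the Landrace boars of contrast (i) entered. The cause was not tested. DESeq2 adjusted p-values that were missing stayed missing.

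Signs turned only for members that were not called. In contrast (i), TTLL13 was at 0.0056 with DESeq2, 0.0057 with RLE and 0.042 without a filter, and TTLL9 at 0.0078 without a filter. Leaving out single boars, TTLL13 ran from -0.084 to 0.014 and TTLL9 from -0.43 to 0.15. In contrast (ii) the same ranges were -0.28 to 0.30 for TTLL10, -0.16 to 0.17 for TTLL3, -0.15 to 0.12 for TTLL5, -0.050 to 0.21 for TTLL7 and -0.19 to 0.24 for TTLL9. Between the breeds they were -0.095 to 0.084 for TTLL10, -0.065 to 0.057 for TTLL13, -0.069 to 0.023 for TTLL3 and -0.058 to 0.048 for TTLL4. TTLL10 between the breeds was at -0.0057 with DESeq2, -0.0058 with RLE, -0.014 without a filter and -0.071 with 8 Landrace boars, and TTLL13 at -0.00049, -0.00037 and -0.011 under the former 3. TTLL3 and TTLL4 with 8 Landrace boars were at 0.014 and 0.0083, and TTLL4 with hyperactivity as a term at 0.049. Of the other values, 201 kept sign and side of the threshold under the alternatives and 340 without single boars.

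Each member had at least 703 reads in every library, and a Landrace or Duroc group held 3 to 5 boars. Levels of different members were not compared per length, since no transcript lengths were given. No paired analysis was possible because the labels give the boars no replicate numbers that pair them across groups.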
